A study of Gallus gallus and Anas platyrhynchos and Coturnix japonica with 11 samples.

Results

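The miRNAs described here are the strands of the miR-140 and miR-455 hairpins, which are known from the cartilage of the vertebrate skeleton. Every listed strand of these hairpins was taken, which gave 4 of the 186 miRNAs measured: gga-miR-140-3p, gga-miR-140-5p, gga-miR-455-3p and gga-miR-455-5p. The study sequenced small RNAs of the frontonasal prominence (FNP), the midline outgrowth of the embryonic face, from chicken (Gallus gallus), quail (Coturnix japonica) and duck (Anas platyrhynchos domestica) embryos at Hamburger-Hamilton stages HH20 and HH25. It asked how miRNAs of the facial neural crest differ between a stage at which the faces look alike and one at which they have diverged. Chicken and duck had 2 biological samples at each stage and quail had 1, so that 11 libraries stood for 10 biological samples, because 1 chicken sample, the second of stage HH25, was run 2 times. The first samples each pooled 40 embryos and the second samples 5, no embryo received a treatment, and no strain was named. FNP mesenchyme, freed of surface ectoderm and forebrain neuroectoderm with dispase and needles, was used in every group.

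A miRNA hairpin is cut into a duplex of 2 strands, named 5p and 3p after the arm they come from, and the strand that is loaded into an Argonaute protein guides it to messenger RNAs, mainly through the seed at bases 2 to 8. In mouse and human, miR-140 is made in chondrocytes from an intron of WWP2, a ubiquitin ligase gene, downstream of SOX9, the transcription factor that sets the cartilage fate. Mice without miR-140 have short bones and a short snout, and in zebrafish miR-140 targets Pdgfra, a growth factor receptor gene used by migrating cranial neural crest cells. miR-455 lies in a collagen gene, COL27A1, and in mouse it is likewise found in developing cartilage. In the chicken RefSeq gene table (GRCg7b) MIR140 lay within WWP2 on chromosome 11 and MIR455 within COL27A1 on chromosome 17. The mature sequences against which the reads of all species were counted are shown 5′ to 3′ as the files list them, with the seed in capitals, because the seed is the part that selects targets.

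gga-miR-140-3p: cCACAGGGuagaaccacggac
gga-miR-140-5p: aGUGGUUUuacccuaugguag
gga-miR-455-3p: uGCAGUCCaugggcauauacac
gga-miR-455-5p: uAUGUGCCcuuggacuacaucg

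The 4 seeds differed from each other, and 0 of the other listed miRNAs shared any of them. No other listed sequence came closer than 8 mismatches to a member. With up to 2 mismatches allowed, a full-length read of a member could therefore not match another listed name as well. Folded as a duplex, the miR-140 strands formed 16 base pairs with a free energy of -26.2 kcal/mol and the miR-455 strands formed 17 with -25.1 kcal/mol.

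Levels are given as PMMR, the reads of a miRNA per 1000000 reads left after adapter removal. Libraries held 3097711 to 10894243 such reads, of which 53.5 to 85.1% fell on listed miRNAs, and 1 read was worth 0.0918 to 0.323 PMMR. The first chicken sample at HH25 stood apart from the others: its mesenchyme markers gga-miR-199 and gga-miR-199* summed to 315.5 PMMR, against 6277 to 24112 PMMR in the other 9 samples, and its neural markers to 3434 PMMR, the highest of all samples. These 2 markers are strands of the same miRNA and the only mesenchyme markers used here. By them alone this library goes against its label as a mesenchyme sample, and results that rest on it are given with and without it. The summed levels at HH20 and HH25 were 6277 to 24112 and 315.5 to 21079 PMMR for mesenchyme (2 of 2 markers listed), 251.9 to 1915 and 62.6 to 1461 for surface ectoderm (5 of 5), 1041 to 1835 and 654.4 to 3434 for neural tissue (6 of 6), and 16407 to 40678 and 4992 to 37720 for endothelium (2 of 2). Red blood cell markers (2 of 2) summed to 185.9 to 464.7 and 99.5 to 513.3 PMMR, white blood cell markers (3 of 3) to 272.7 to 675.1 and 72.4 to 379.7, and muscle markers (2 of 2) to 43.6 to 392.9 and 93.2 to 510.7. Smooth muscle markers (2 of 2) summed to 37596 to 55035 and 5183 to 113140 PMMR, and the liver marker gga-miR-122 ran from 2.19 to 532.9 PMMR over all samples. The first chicken sample at HH25 was also the lowest for surface ectoderm, red and white blood cells, endothelium, smooth muscle and liver, but not for muscle. No marker was at 0 in any sample, and the part of other cell types in the levels below was not tested. In such pooled tissue, fewer cells that make a miRNA and less miRNA per cell cannot be told apart.

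The 3p strand of miR-140 was by far the most abundant of the 4 members. gga-miR-140-3p measured 12042 and 14906 PMMR in HH20 chicken and 10823 and 33886 PMMR in HH25 chicken, first sample before second. The quail samples measured 14850 PMMR (HH20) and 25782 PMMR (HH25). The duck samples measured 15195 and 16723 PMMR when taken at HH20, and 24397 and 39693 PMMR when taken at HH25. All 5 HH20 samples thus lay between 12042 and 16723 PMMR, whereas HH25 samples ran from 10823 to 39693 PMMR, and only the first chicken sample at HH25 was as low as the HH20 samples. Its rank by level among the 186 miRNAs ran from 4 to 25, and 39592 to 452792 reads per sample stood behind these values, so that counting error was small against the spread between samples.

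gga-miR-140-5p, whose zebrafish counterpart represses Pdgfra, was at a lower level in each sample and followed a similar order. Its levels in HH20 chicken were 923.8 and 859.6 PMMR, and in HH25 chicken 697.9 and 2144 PMMR. The 2 quail samples gave 1362 PMMR (HH20) and 1704 PMMR (HH25). HH20 duck gave 1257 and 1461 PMMR, and HH25 duck 2036 and 3658 PMMR. The duck samples at HH25 lay above those at HH20 without overlap, as did 24.2% of all miRNAs. The lowest of all 10 was again the first HH25 chicken sample. The strand ranked from 39 to 61 of 186.

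gga-miR-455-3p was much scarcer, with 99 to 926 reads per sample. HH20 chicken held 58.65 and 51.2 PMMR of it, and HH25 chicken 27.1 and 69.5 PMMR. The HH20 quail sample held 125.4 PMMR, the highest level of the strand, and the HH25 quail sample 88.1 PMMR. HH20 duck held 55.15 and 47.1 PMMR, and HH25 duck 92.5 and 68.3 PMMR. The lowest level was again that of the first HH25 chicken sample, and the quail sample at HH20 lay above every other sample.

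gga-miR-455-5p, the more abundant strand of its hairpin, had lower levels at HH25 than at HH20 in chicken and quail and higher ones in duck. In chicken, 126.4 and 167.5 PMMR were found in the HH20 samples and 53.3 and 106.8 PMMR in the HH25 samples. In quail the younger sample had 183.3 PMMR and the older 132.4 PMMR. In duck the younger samples had 83.3 and 71.5 PMMR and the older 117.7 and 109.6 PMMR. Neither in chicken nor in duck did the stages overlap, and they were ordered in opposite directions. Of all miRNAs, 24.2% were higher at HH25 without overlap in duck and 12.4% were lower without overlap in chicken. The share that did both was not counted.

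**Figure D1:**
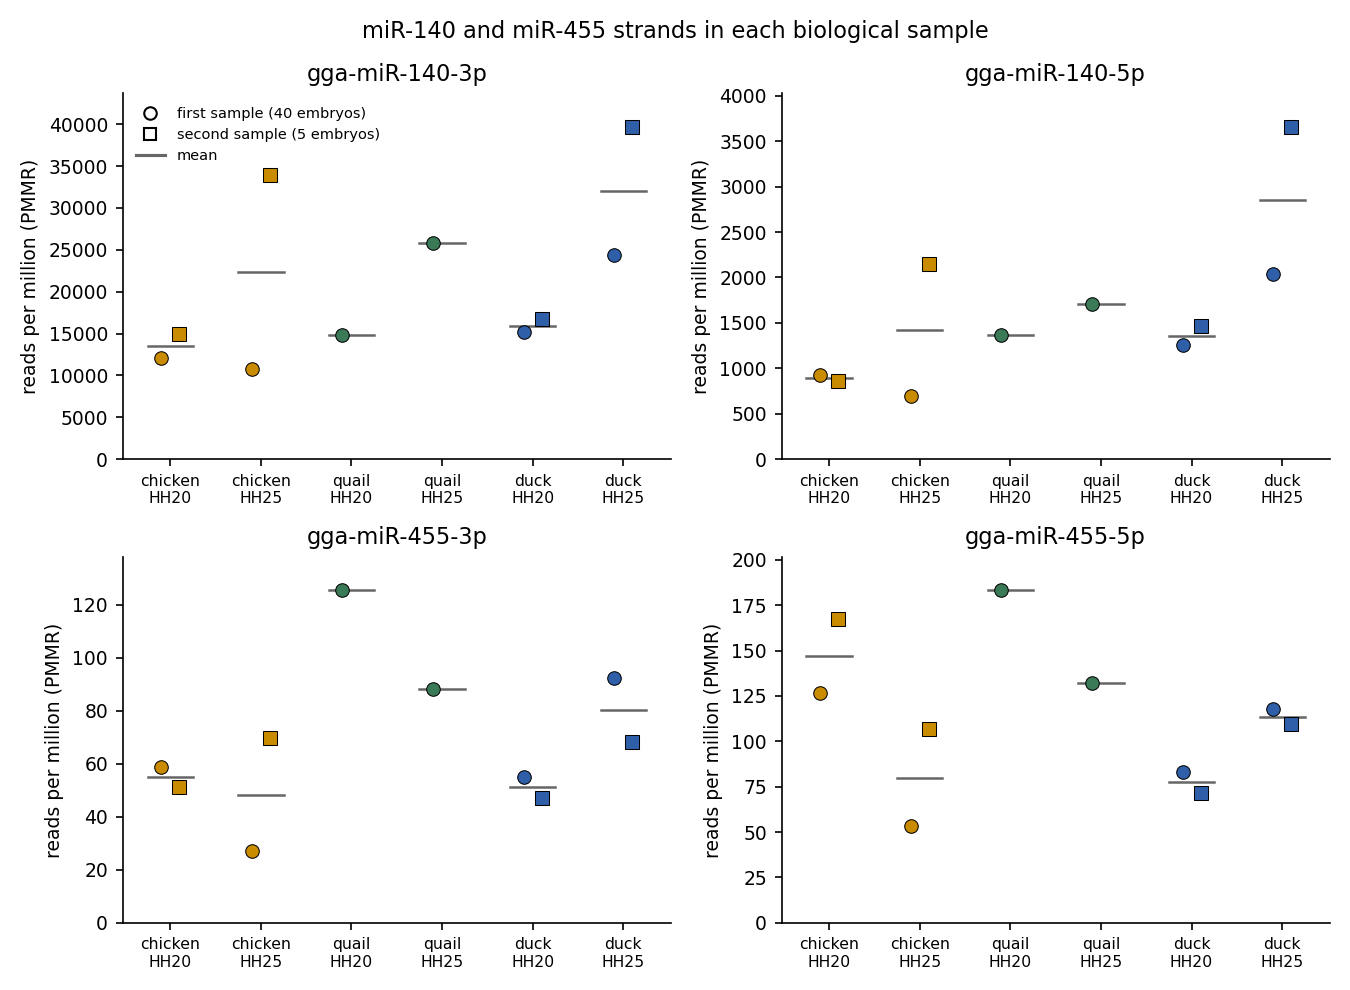
Level of each strand in PMMR (linear axis from 0) by species and stage; circles are first samples, squares second samples, and grey lines group means. Duck samples at HH25 lie above those at HH20 for all 4 strands, as they do for 24.2% of all miRNAs. The first chicken sample at HH25 is the lowest of the 10 for each strand, from 27.1 PMMR for gga-miR-455-3p to 10823 PMMR for gga-miR-140-3p.

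By group mean, gga-miR-140-3p was ordered from chicken HH20 (13474 ± 2025 PMMR, SD, n = 2) over quail HH20, duck HH20 (15959 ± 1081, SD, n = 2), chicken HH25 (22354 ± 16308, SD, n = 2) and quail HH25 to duck HH25 (32045 ± 10816, SD, n = 2). The quail HH20 sample lay within the range of the chicken HH20 samples and just below the duck HH20 samples, and the chicken HH25 samples spanned nearly the whole range, so only the step from quail to duck at HH20 was about as large as the spread of the group it led to, and no step exceeded it clearly. For gga-miR-140-5p the order began with chicken HH20 (891.7 ± 45.4 PMMR, SD, n = 2), below duck HH20 (1359 ± 144, SD, n = 2), quail HH20 at 1362 PMMR and chicken HH25 (1421 ± 1023, SD, n = 2), and again ended with duck HH25 (2847 ± 1147, SD, n = 2). Here chicken and duck at HH20 were apart by more than their spread, and the neighbours above them were not. For gga-miR-455-3p the quail groups were highest, and chicken HH25 (48.3 ± 30.0, SD, n = 2), duck HH20 (51.1 ± 5.71, SD, n = 2) and chicken HH20 (54.9 ± 5.30, SD, n = 2) did not differ beyond their spread. The mean of duck HH25 (80.4 ± 17.1, SD, n = 2) lay above theirs by more than its own spread. The second duck HH25 sample (68.3 PMMR) was still below the second chicken HH25 sample (69.5 PMMR). For gga-miR-455-5p duck HH20 was lowest (77.4 ± 8.37, SD, n = 2), next to chicken HH25 (80.1 ± 37.9, SD, n = 2), and duck HH25 (113.6 ± 5.71, SD, n = 2) lay below chicken HH20 (147.0 ± 29.1, SD, n = 2).

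The spread between the 2 samples of a group was largest in chicken at HH25, where the members differed 2.004-fold to 3.13-fold, against 1.07-fold to 1.80-fold in the other groups. For the chicken sample that was run 2 times, the runs differed by -5.65 to 5.03% for the 4 members, far less than the 2 chicken samples at HH25 differed. In other groups the smallest difference between samples, 1.07-fold, was close to that between the runs. Over the 10 samples the standard deviation of the log2 level was 0.63 for gga-miR-140-3p, 0.71 for gga-miR-140-5p, 0.60 for gga-miR-455-3p and 0.54 for gga-miR-455-5p, each below the median of 0.81 over all 186 miRNAs.

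The first comparison was between stages. From HH20 to HH25 both miR-140 strands were higher in duck, in quail and in the second chicken samples, and lower in the first. The ratio of HH25 to HH20 was 1.61 in the first and 2.37 in the second duck samples for gga-miR-140-3p, 1.74 in quail, and 0.899 and 2.27 in chicken. For gga-miR-140-5p it was 1.62 and 2.50 in duck, 1.25 in quail and 0.755 and 2.49 in chicken. The 2 chicken ratios point in opposite directions, and the 95% counting interval of the lower one, 0.887 to 0.911 for gga-miR-140-3p, does not reach 1. The share of reads on listed miRNAs was higher at HH25 in every pair, as in quail (59.8 and 73.8%). Scaled to those reads, the gga-miR-140-3p ratios were 1.44 and 2.17 in duck, 1.40 in quail, and 0.779 and 1.90 in chicken. The gga-miR-140-5p ratios were then 1.45 and 2.29 in duck, 1.01 in quail, and 0.655 and 2.09 in chicken.

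The miR-455 strands did not share one direction across species. gga-miR-455-3p had a ratio of 1.68 (counting interval 1.39 to 2.03) and 1.45 (1.29 to 1.64) in duck, 0.703 (0.605 to 0.814) in quail, and 0.461 (0.362 to 0.584) and 1.36 (1.19 to 1.55) in chicken. gga-miR-455-5p had ratios of 1.41 (1.21 to 1.65) and 1.53 (1.39 to 1.69) in duck, 0.722 (0.640 to 0.814) in quail, and 0.422 (0.356 to 0.497) and 0.638 (0.587 to 0.690) in chicken. These intervals cover counting error only. gga-miR-455-5p alone of the 4 members was lower in both chicken samples.

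**Figure D2:**
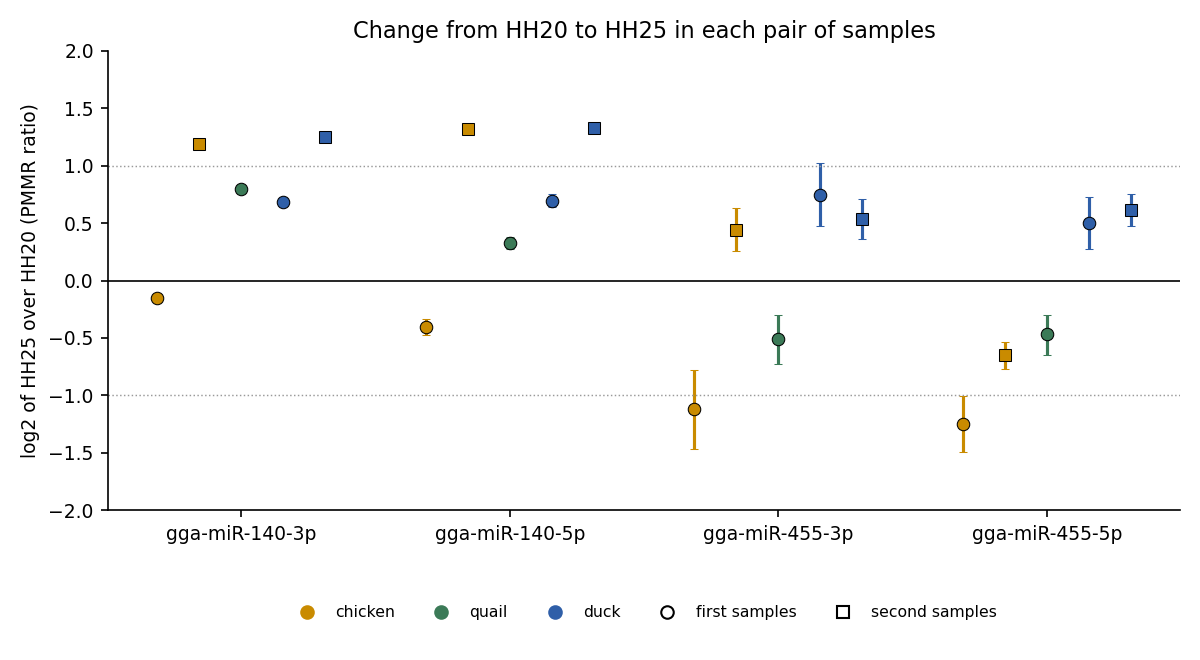
Log2 ratio of HH25 to HH20 for each strand in each pair of samples with the same sample number, with 95% counting intervals; dotted lines mark 2-fold. For gga-miR-140-3p the ratios run from 0.899 in the first chicken samples to 2.37 in the second duck samples, and for gga-miR-455-5p chicken and quail lie below 0 and duck above.

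Read as 2-fold changes between single libraries, with more than 15 PMMR in 1 of them, both miR-455 strands were lower at HH25 in the first chicken samples, where 19.9% of all miRNAs were 2-fold lower. In the second chicken samples both miR-140 strands were 2-fold higher, as were 19.9% of all, and in the second duck samples both miR-140 strands were 2-fold higher, as were 15.6% of all. In the first duck samples and in quail no member reached 2-fold, against 24.7% and 16.1% of all miRNAs in either direction. Over samples, levels at HH25 lay above those at HH20 without overlap for all 4 members in duck, where 24.2% of all miRNAs did so, and for none in chicken, where 18.8% did so. In chicken gga-miR-455-5p lay below without overlap, as did 12.4% of all miRNAs. Scaled to the reads on listed miRNAs in place of all reads, these 5 separations stayed, with backgrounds of 15.6% in duck and 18.8% in chicken.

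With the 3 species fitted together on log2(PMMR + 1), which understates changes of low miRNAs, gga-miR-140-3p was 0.75 higher on the log2 scale at HH25 (SE 0.327, limma adjusted p = 0.291) and gga-miR-140-5p 0.65 higher (SE 0.340, limma adjusted p = 0.316). The estimate was 0.02 for gga-miR-455-3p (SE 0.377, limma adjusted p = 0.965) and -0.25 for gga-miR-455-5p (SE 0.369, limma adjusted p = 0.741). No member passed the adjusted threshold of 0.05, while 3.23% of the 186 miRNAs did. The unadjusted limma p of gga-miR-140-3p was 0.0445. It was 0.160 when scaled to the reads on listed miRNAs (estimate 0.54), 0.0636 with median-centring and 0.0617 without limma's intensity trend. In the other settings with all samples kept it stayed under 0.05. It was lowest, 0.0182, with a block for each species and sample number, which pairs the same-numbered samples of the 2 stages. Second-minus-first differences correlated by 0.01 between the chicken stages and by 0.25 between the duck stages.

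The call for miR-140 turned on the library that stood apart. Leaving out 1 sample at a time, the stage estimate ran from 0.53 to 1.04 for gga-miR-140-3p and from 0.43 to 0.93 for gga-miR-140-5p. Both were lowest without the second chicken sample at HH25 and highest without the first. Without the first chicken sample at HH25, gga-miR-140-3p rose by 1.04 on the log2 scale, 2.06-fold with a 95% interval of 1.43 to 2.96 (SE 0.240, limma adjusted p = 0.0196), and gga-miR-140-5p rose by 0.93, 1.91-fold with an interval of 1.30 to 2.80 (SE 0.256, limma adjusted p = 0.0417). In that fit 17 miRNAs were called in place of 6. With that library alone left out, both strands were higher in each of the 4 remaining HH25 samples than in all 5 HH20 samples, as were 3.23% of all miRNAs, under either scaling. When the quail samples were left out as well, in a fit chosen after seeing the data, both estimates were 1.11. The chicken library left out held the lowest level of both strands, so leaving it out raised the estimates. With every sample kept, no member was free of overlap, against 2.15% of all. The miR-455 estimates without that library were 0.28 and 0.01 with limma adjusted p = 0.686 and 0.979.

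Marker miRNAs of other cell types also differed between stages among the retained samples. The summed neural markers were lower at HH25 in each same-numbered pair. Their sum went from 1528 to 654.4 PMMR in the second chicken pair and from 1422 to 1213 PMMR in quail. In duck it went from 1742 to 1295 and from 1835 to 967.2 PMMR. Only the sum was compared, and single neural markers may have gone the other way in any of these pairs. Whether neural content fell was therefore not tested. White blood cell markers were lower at HH25 in each of these pairs as well, from 316.4 to 172.2 PMMR in chicken, 343.3 to 232.1 PMMR in quail, and 456.3 to 207.4 and 675.1 to 379.7 PMMR in duck. Summed mesenchyme markers were higher at HH25 in the second chicken pair (8378 and 16961 PMMR) and both duck pairs (8638 and 12289, 6277 and 12888 PMMR) and lower in quail (24112 and 21079 PMMR). In quail the strands went opposite ways, gga-miR-199 from 2253 to 2857 PMMR and gga-miR-199* from 21859 to 18222 PMMR. The part of these markers in the miR-140 change was not tested.

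**Figure D3:**
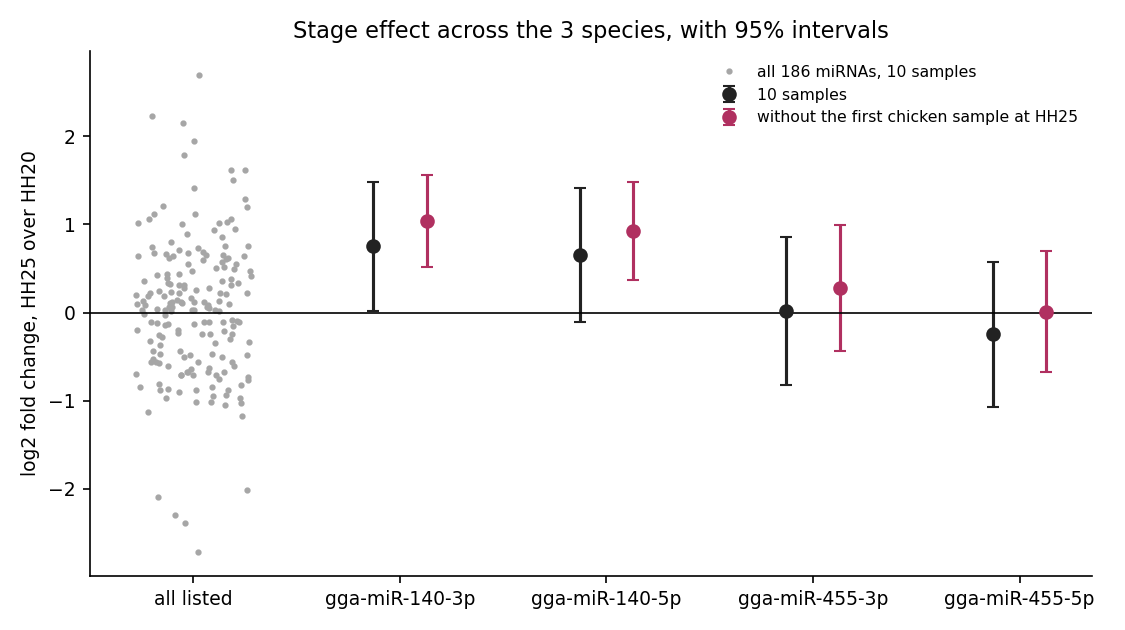
Log2 fold change from HH20 to HH25 over the 3 species from limma, with 95% intervals, for the 4 members with all 10 samples (black) and without the first chicken sample at HH25 (red); grey points are all 186 miRNAs. Leaving that sample out moves gga-miR-140-3p from 0.75 to 1.04 and gga-miR-140-5p from 0.65 to 0.93. The gga-miR-140-3p interval lies above 0 with and without that sample, and the gga-miR-140-5p interval only without it. The intervals of the miR-455 strands include 0 either way.

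Within single species no member passed the test. In duck the log2 changes were 0.97 and 1.01 for the 3p and 5p strands of miR-140 and 0.63 and 0.55 for those of miR-455, each with a limma adjusted p of 0.951. In chicken they were 0.52, 0.46, -0.33 and -0.94, with limma adjusted p from 0.567 to 0.855. The chicken estimates became 1.34, 1.27, 0.34 and -0.44 without the first sample at HH25, and -0.31, -0.35, -0.99 and -1.43 without the second, so that gga-miR-455-5p alone kept its sign. Of all 186 miRNAs, 0 were called in either species by limma on log values or by voom, with 9 in duck and 21 in chicken at an unadjusted p under 0.05. In chicken the count became 3 with the sample number as a block, and 7 and 53 without the first and the second sample at HH25.

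Whether duck and chicken changed differently with stage was tested as an interaction. The difference, duck minus chicken, was 1.49 for gga-miR-455-5p (SE 0.852, unadjusted p = 0.117, limma adjusted p = 0.996) and ranked 8 among 186 from the highest. It was 0.96 for gga-miR-455-3p, 0.55 for gga-miR-140-5p and 0.45 for gga-miR-140-3p, each with a limma adjusted p of 0.996. Without the first HH25 chicken sample the difference was 0.99 for gga-miR-455-5p, 0.29 for gga-miR-455-3p, -0.26 for gga-miR-140-5p and -0.37 for gga-miR-140-3p. None of the 186 miRNAs was called, by voom as well (0 of 186), and 1 had an unadjusted p under 0.05.

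The level of one hairpin over the other, taken within a library, does not depend on how the library was scaled. Summed over both strands, miR-140 exceeded miR-455 in every sample. The ratio went from 70.1 to 143.4 in the first and from 72.1 to 204.3 in the second chicken samples, from 52.5 to 124.7 in quail, and from 118.8 to 125.8 and 153.4 to 243.7 in duck. It was thus higher at HH25 in each of the 5 pairs, the pair with the chicken library that stood apart included. The rise was smallest in the first duck pair (118.8 and 125.8), where 467 and 668 miR-455 reads were counted. No counting interval was computed, so a change this small cannot be told from counting error. The second duck sample at HH20 overlapped with the HH25 samples. No test across miRNAs was made of this ratio.

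The second comparison was between species. At HH20 both miR-140 strands were higher in duck than in chicken without overlap, as were 38.7% of all miRNAs, and gga-miR-455-5p was lower without overlap, as were 10.2%. Scaled to the reads on listed miRNAs, only gga-miR-140-5p was higher, with 24.7% of all, and both miR-455 strands were lower, with 18.3% of all. The duck to chicken ratio of gga-miR-140-5p was 1.36 and 1.70 in the first and second samples, and that of gga-miR-140-3p was 1.26 and 1.122. For gga-miR-455-5p it was 0.659 (counting interval 0.569 to 0.762) and 0.427 (0.386 to 0.471), and for gga-miR-455-3p 0.940 (0.774 to 1.14) and 0.920 (0.794 to 1.07). Only the second ratio of gga-miR-455-5p reached 2-fold, as did 9.68% of all miRNAs in that direction, and in the first samples no member did, against 31.2% of all in either direction.

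The direction of gga-miR-140-3p at HH20 depended on the scaling. The median of all miRNAs was 0.35 higher in duck on the log2 scale, and the estimate of 0.25 for gga-miR-140-3p (SE 0.595, limma adjusted p = 0.943) became -0.08 after median-centring and -0.09 when scaled to the reads on listed miRNAs. gga-miR-140-5p was 0.60 higher (SE 0.603, limma adjusted p = 0.799) and gga-miR-455-5p had an estimate of -0.91 (SE 0.602, limma adjusted p = 0.627). Of all miRNAs 0 were called, by voom as well, and 23 had an unadjusted p under 0.05.

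At HH25 the first and the second samples gave different pictures. All 4 members were at least 2-fold higher in the first duck sample than in the first chicken sample, with ratios of 2.25 for gga-miR-140-3p, 2.92 for gga-miR-140-5p, 3.42 for gga-miR-455-3p and 2.21 for gga-miR-455-5p, where 27.4% of all miRNAs were 2-fold higher. In the second samples the ratios were 1.17, 1.71, 0.982 and 1.03 and no member reached 2-fold, against 32.3% of all in either direction. The 2-fold differences thus came with the chicken library that stood apart. Only gga-miR-455-5p was higher in duck without overlap, as were 21.5% of all miRNAs, and scaled to the reads on listed miRNAs no member was, against 17.7%.

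In limma the differences at HH25 were 0.70, 1.16, 0.86 and 0.58 for gga-miR-140-3p, gga-miR-140-5p, gga-miR-455-3p and gga-miR-455-5p, with adjusted p from 0.427 to 0.677. No member was called, against 2.15% of all miRNAs. Without the second chicken sample at HH25, gga-miR-140-5p was 1.97 higher in duck (SE 0.552, limma adjusted p = 0.00497) and 43 miRNAs were called. Without the first, the estimates were -0.12, 0.35, 0.19 and 0.09 and 7 miRNAs were called, so the size of the difference was set by which chicken library was kept.

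Over both stages gga-miR-140-5p was 0.88 higher in duck than in chicken (SE 0.406, unadjusted p = 0.0578, limma adjusted p = 0.222), and the other members differed by 0.48, 0.38 and -0.16. No member was called, against 9.68% of all miRNAs. Quail, with 1 sample at each stage, had all 4 estimates above chicken, as were 68.8% of all miRNAs. They ran from 0.29 for gga-miR-140-3p to 1.09 for gga-miR-455-3p (SE 0.516, limma adjusted p = 0.351), against a median of 0.33 over all miRNAs. No member was called in quail against chicken, where 1.08% of all were. The estimate for gga-miR-140-3p turned to -0.073 without the first HH25 chicken sample and to -0.092 with median-centring. Duck against quail gave 0.19 and 0.34 for the miR-140 strands and -0.72 and -0.73 for gga-miR-455-3p and gga-miR-455-5p, with limma adjusted p from 0.487 to 0.887 and no member called, against 5.91% of all.

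In single libraries, quail and chicken at HH20 differed 2.14-fold (counting interval 1.84 to 2.49) in gga-miR-455-3p, where 28% of miRNAs were 2-fold higher in quail. Both miR-455 strands were at least 2-fold lower in the first duck sample than in quail at HH20, with ratios of 0.440 and 0.455, where 19.9% of miRNAs were 2-fold lower. At HH25 quail exceeded the first chicken sample 2.38-fold to 3.26-fold in all 4 members, where 25.8% of miRNAs were 2-fold higher. Against the second chicken sample at HH25 both miR-140 strands were lower in quail, by 0.39 and 0.33 on the log2 scale. The first duck sample and quail at HH25 differed by less than 2-fold in all members, against 34.4% of all miRNAs past 2-fold. The second duck sample at HH25 was more than 2-fold above quail in gga-miR-140-5p (3658 and 1704 PMMR), and in no other member. The share of all miRNAs past 2-fold in this pair was not counted, so this sets the strand apart from no other miRNA.

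The strands of each hairpin were then compared within samples, a measure that total depth and scaling leave untouched. Of miR-140 reads, the 3p strand made up 92.9% and 94.5% in chicken at HH20 and 93.9% and 94.0% at HH25. In quail it made up 91.6% at HH20 and 93.8% at HH25. In duck it made up 92.4% and 92.0% at HH20 and 92.3% and 91.6% at HH25. All 4 duck samples were below all 4 chicken samples, and the first duck sample at HH20 came nearest, with a Wilson 95% interval of 92.1 to 92.6% against 92.7 to 93.1% in the first chicken sample at HH20.

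As a ratio, gga-miR-140-3p exceeded gga-miR-140-5p 13.04-fold to 17.3-fold in chicken, 10.9-fold to 12.1-fold in duck, and 10.9-fold and 15.1-fold in quail. Of the 40 hairpins with both strands listed, 7.5% had a ratio that was lower in duck at both stages without overlap, and 12.5% were free of overlap in either direction. The ratio was 3p over 5p where strands are so named, and otherwise the strand named star over its partner. Lower thus does not mark the same kind of strand in all 40. The limma estimate was -0.41 on the log2 scale (SE 0.233, adjusted p = 0.350 over the 40 hairpins), and neither hairpin was called, nor was any of the 40, 9 of which had an unadjusted p under 0.05. Between stages the miR-140 ratio differed by 0.10 (SE 0.230, limma adjusted p = 0.907), where 0 of the 40 were called and 1 had an unadjusted p under 0.05.

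In miR-455 the 5p strand was the larger in all 10 samples. The 3p strand made up 31.7% (Wilson interval 28.6 to 35.0%) and 23.4% (21.2 to 25.7%) of its reads in chicken at HH20 and 33.7% (28.5 to 39.3%) and 39.4% (37.5 to 41.4%) at HH25. In quail it made up 40.6% and 40.0%, and in duck 39.8% and 39.7% at HH20 and 44.0% and 38.4% at HH25. The 3 lowest shares were thus all in chicken, and duck and quail stayed between 38.4 and 44.0%. Duck and chicken overlapped through the second HH25 chicken sample, and the limma difference was 0.55 on the log2 scale (SE 0.277, adjusted p = 0.337). The stage estimate was 0.27 (SE 0.257, limma adjusted p = 0.854).

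**Figure D4:**
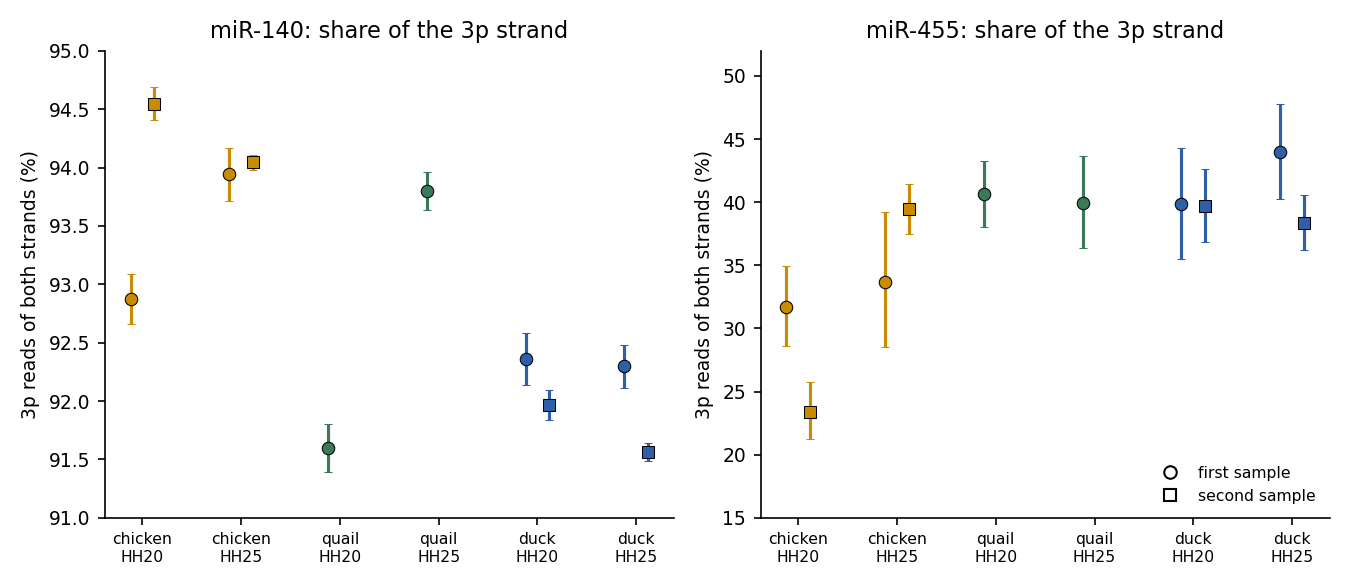
Share of the 3p strand among the reads of both strands, in percent, with Wilson 95% intervals, for miR-140 (left, axis from 91 to 95%) and miR-455 (right, axis from 15 to 52%); neither axis starts at 0. The duck samples lie between 91.6 and 92.4% for miR-140, below all chicken samples, and the lowest miR-455 share is 23.4% in the second chicken sample at HH20.

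The strand ratios varied little beside those of other hairpins. Over the 10 samples the log2 ratio had a standard deviation of 0.25 for miR-140, the smallest of the 40 hairpins, and 0.39 for miR-455, the third smallest, against a median of 0.68. The miR-140 strands had many reads, and counting noise adds more to this spread in scarce hairpins. Across the 10 samples the levels of the miR-140 strands went together (Pearson r = 0.94, Spearman rho = 0.93, log2 scale), as did those of the miR-455 strands to a lesser degree (r = 0.77, rho = 0.64, and r = 0.58 without the first chicken sample at HH25). Between hairpins r ran from 0.17 to 0.55, and from -0.26 to 0.30 when the first HH25 chicken sample was left out. These values share libraries and are given as descriptions.

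Beside its partner strand, the miRNAs whose levels went most closely with gga-miR-140-3p over the 10 samples were gga-miR-10b (r = 0.79) and gga-miR-130a (r = 0.71), and with gga-miR-140-5p hsa-miR-23a (r = 0.78) and gga-miR-10b (r = 0.77). For gga-miR-455-3p they were gga-miR-199* (r = 0.91), a strand of the mesenchymal miR-199, gga-miR-10b (r = 0.85) and hsa-miR-143* (r = 0.84). For gga-miR-455-5p they were gga-miR-199* (r = 0.80), gga-miR-451 (r = 0.80), a miRNA of red blood cells, and gga-miR-455-3p (r = 0.77). gga-miR-10b, a miRNA of the Hox clusters, was scarce, at 0.82 to 26.4 PMMR. Without the first chicken sample at HH25 only 1 of the 3 miRNAs named stayed among the closest 3 for each of gga-miR-140-3p, gga-miR-140-5p and gga-miR-455-3p, and 0 for gga-miR-455-5p.

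Other miRNAs with known roles in cartilage, bone or palate were read from a list of 17, all of them in the files. Of these 0 were called between stages, where the list's median log2 change was 0.05 against 0.06 over all 186. Between duck and chicken over both stages 12 of all 186 miRNAs were called higher in duck, and 9.68% were called in either direction. The list's median there was 0.51 against 0.20 over all miRNAs. Of the list 4 of 17 were called, all higher in duck. They were hsa-miR-27a (2.098, SE 0.321, limma adjusted p = 0.00367), hsa-miR-23a (1.95, SE 0.468, limma adjusted p = 0.0368), gga-miR-27b (1.19, SE 0.278, limma adjusted p = 0.0329) and gga-miR-24 (1.15, SE 0.288, limma adjusted p = 0.0382), which belong to the related miR-23, miR-27 and miR-24 clusters. Only hsa-miR-27a of the 17 was still called with median-centring, with scaling to the reads on listed miRNAs, and without the first HH20 chicken sample or any 1 of the duck samples. The called miRNAs of the list were 2, hsa-miR-27a and hsa-miR-23a, without the second HH20 or the second HH25 chicken sample. The study had already reported the miR-23a-27a-24-2 cluster and miR-27b as higher in duck, from libraries that are also used here. As the list was chosen with earlier results known, its calls are no separate evidence. The 4 members of miR-140 and miR-455 were not among the called miRNAs of any comparison with all samples kept.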

How the data were processed

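Small RNAs of 20 to 40 bases were sequenced on an Illumina GAIIX. According to the methods of the study, reads were matched by the authors to chicken and human mature miRNAs of miRBase release 16 with miRanalyzer (release version 1), allowing 0 to 2 mismatches, and miRNAs above 15 PMMR in at least 1 library were kept. Quail and duck reads were thus counted against chicken or human sequences, so a base that differs between species could lower a level, which was not tested. The deposited signal values are PMMR, the authors' reads per 1000000 reads left after adapter removal. PMMR times the library total gave whole reads for 100% of values (tolerance 0.005 PMMR).

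Log2(PMMR + 1) was tested with limma 3.58.1 (intensity trend, R 4.3.3) over 186 miRNAs with Benjamini-Hochberg adjustment, and strand ratios over 40 hairpins without the trend. The runs of 1 chicken sample were averaged (reads summed). Quail had 1 sample a stage and no spread of its own. Single-library ratios carry counting intervals, and shares Wilson 95% intervals. The labels do not say whether the samples came from separate collections, so p-values measure only the spread between them. Sample numbers mark pools of 40 or 5 embryos. According to the methods of the study, the first samples were RNA that the authors had already used in an earlier study. The part of this difference was not tested. The correlation of second-minus-first differences was 0.01 (chicken stages), 0.25 (duck stages), 0.61 (duck and chicken at HH20) and 0.20 (at HH25). Duplexes were folded with ViennaRNA 2.7.2. Named miRNAs were all strands of miR-140 and miR-455, the 3 with the highest Pearson r to each, and called members of the skeletal list. The members and lists were chosen with earlier results of these data known. Alternatives covered the pseudocount, scaling, filter, trend, voom, the block, runs and each sample left out.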

Additional observations from a re-analysis of the deposited data

Results flagged for a closer look

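gga-miR-455-5p was lower at HH25 in both chicken samples (ratios of 0.422 and 0.638) and higher in both duck samples (1.41 and 1.53), so that every sample pair of one species moved against those of the other. The interaction, duck minus chicken, was 1.49 on the log2 scale and was not called (limma adjusted p = 0.996). Of all miRNAs, 24.2% were higher at HH25 without overlap in duck and 12.4% were lower without overlap in chicken, and the share that did both was not counted. Without the first chicken sample at HH25 chicken still had 106.8 against 126.4 and 167.5 PMMR, so the direction did not rest on that library. Red blood cell markers summed to 189.6 and 464.7 PMMR in chicken at HH20 and to 99.5 and 263.4 PMMR at HH25. In duck they went from 185.9 to 255.8 PMMR in the first pair and from 238.9 to 208.8 PMMR in the second, and their part in the change was not tested.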

How the results depend on the processing

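Of 40 tested results on the members, 701 of 728 values under the alternatives kept direction and side of the threshold. Another 5 crossed it, all for miR-140, and their estimates are given in the report. In 13 results 22 values turned in sign, and the causes were not tested. The voom fit, and the fit without the first HH25 chicken sample and without quail, were chosen after seeing the data. edgeR and TMM scaling were not run. With 99 reads of gga-miR-455-3p in the first chicken sample at HH25, counting alone leaves its stage ratio between 0.362 and 0.584.

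Counts of called miRNAs moved as follows. Between duck and chicken at HH25, 4 calls became 0 with a pseudocount of 10, median-centring, no intensity trend, voom, the replicate block or run 1 alone, and at HH20 0 became 1 without the trend. Across the 3 species the 6 stage calls became 16 with median-centring (12 higher, against 3 of 6) and 14 without the first HH25 chicken sample and without quail. For quail against chicken 2 calls became 4 with median-centring (1 higher, against 1 of 2). For duck against chicken over both stages 18 calls became 10 with median-centring or scaling to miRNA reads (3 higher in each, against 12 of 18), and at HH25 the latter scaling left 3 calls, all lower. With the sample number as a replicate block, 0 stage calls in chicken became 3 and 0 strand calls between duck and chicken became 1, and no member's call changed. Of the members' ratios between first samples, 13 passed 2-fold and 6 did when the means of both samples were compared.

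Leaving out 1 sample at a time, the calls ran from 0 to 53 for stage in chicken, 0 to 9 for stage in duck, 0 to 16 for the interaction, 0 to 14 for duck against chicken at HH20 and 0 to 43 at HH25, 6 to 42 over both stages, 2 to 17 for stage across species, 0 to 11 for quail against chicken, 1 to 25 for duck against quail and 0 to 1 for the strand ratios of duck against chicken. Each highest value came without one of the chicken samples at HH25, except the strand call, which came without the first chicken sample at HH20. A group left with 1 sample was assumed to vary like the others.

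The log2 estimates that turned in sign when 1 sample was left out ranged, for stage in chicken, from -0.31 to 1.34 (gga-miR-140-3p), -0.35 to 1.27 (gga-miR-140-5p) and -0.99 to 0.34 (gga-miR-455-3p). For the interaction they ranged from -0.37 to 1.27 (gga-miR-140-3p) and -0.26 to 1.36 (gga-miR-140-5p). For duck against chicken they ranged from -0.21 to 0.0096 (gga-miR-455-3p, HH20), -0.12 to 1.52 (gga-miR-140-3p, HH25) and -0.51 to 0.067 (gga-miR-455-5p, both stages). For stage across species they ranged from -0.14 to 0.28 (gga-miR-455-3p) and -0.40 to 0.011 (gga-miR-455-5p), and for quail against chicken from -0.073 to 0.56 (gga-miR-140-3p).

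With other settings, gga-miR-140-3p turned to -0.075 (median-centring) and -0.092 (scaling to miRNA reads) for duck against chicken at HH20, to -0.092 for quail against chicken (median-centring) and to -0.022 for duck against quail (scaling to miRNA reads). For stage across species, gga-miR-455-3p turned to -0.19 (scaling to miRNA reads) and gga-miR-455-5p to 0.15 (without the first HH25 chicken sample and without quail). In place of the first samples, the second turned the sign of 4 log2 ratios past 2-fold, for gga-miR-455-3p (0.44 for stage in chicken, -0.026 for duck over chicken at HH25) and, for quail over chicken at HH25, for gga-miR-140-3p (-0.39) and gga-miR-140-5p (-0.33). They turned 6 smaller ratios, among them stage in chicken for gga-miR-140-3p (-0.15 to 1.18) and gga-miR-140-5p (-0.40 to 1.32).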
